A study of Mus musculus with 8 samples.

Results

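The genes described here are 10 mouse genes that break down or recycle purines (Uox, Xdh, Ada, Pnp, Gda, Urah, Nt5e, Adk, Ampd1 and Ampd3), out of 49315 genes counted in RNA of the whole esophagus. They were picked by name from the pathway with their differences between the groups below already known, so those differences are given as descriptions. Where the fit over all genes called one of them, the call is counted and supports nothing. In the SDS group, the drinking water of wild-type mice held 0.5% of the household detergent sodium dodecyl sulfate (SDS), and the esophagus was taken at day 14 (3 libraries). In the control group, wild-type mice had no SDS and were taken at the same day (5 libraries). No other allele, agent, strain or age is given in the labels, nor whether a library came from 1 animal or from several, so any p-value measures the spread between these libraries. The design asks what the detergent does to the esophagus.

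Purines are taken apart in a fixed order. AMP deaminases turn AMP into IMP inside the cell, while CD73 on the cell surface turns AMP into adenosine. Adenosine deaminase makes inosine from adenosine, purine nucleoside phosphorylase releases hypoxanthine and guanine, and guanine deaminase makes xanthine. Xanthine dehydrogenase, a molybdenum enzyme, oxidises hypoxanthine and xanthine to urate. In mice, urate oxidase oxidises urate to hydroxyisourate, which the hydrolase Urah and the decarboxylase Urad convert to allantoin. Humans lack a working urate oxidase. Urate oxidase is best known as a liver enzyme, and adenosine deaminase is known for its high level in the mouse upper digestive tract.

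Total counts ranged from 22033866 to 29802362 per library. The tissue label fitted the markers: 10 genes of the suprabasal squamous epithelium, such as Krt4 and Krt13, summed to 93967 to 165990 CPM (counts scaled to library size) in SDS libraries and to 54191 to 161880 CPM in control libraries. A pair of libraries stood apart from their groups. SDS library 3 differed from SDS libraries 1 and 2 with a chi-square per degree of freedom of 182 and 185, against 39.9 between the other two. Control library 4 differed from the other controls with 79.1 to 277, and the other controls differed among themselves with 24.2 to 109. The 10 markers of wounded keratinocytes, among them Krt6b, Krt16 and S100a8, reached a sum of 20802 and 17855 CPM in SDS libraries 1 and 2 and of 426 CPM in SDS library 3, while controls reached 132 to 200.5 CPM. In RNA of a whole organ, fewer cells of a type and less RNA per cell cannot be told apart.

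Promoter sequence is shown for the genes whose libraries differed most: Uox and Urah, which were both high in SDS libraries 1 and 2, and Ada and Nt5e, which were both low there. Each line gives the 100 bases before a transcription start, 5′ to 3′ on the gene's strand, from RefSeq on GRCm38.p6. Capitals mark the GC box, GGGCGG on either strand, a letter pattern that was searched for after the sequences were seen. The stretches lie at chr3:146597049-146597148 on the plus strand for Uox, chr7:140835038-140835137 on the plus strand for the first start of Urah, chr2:163750240-163750339 on the minus strand for Ada and chr9:88327509-88327608 on the plus strand for Nt5e.
Uox: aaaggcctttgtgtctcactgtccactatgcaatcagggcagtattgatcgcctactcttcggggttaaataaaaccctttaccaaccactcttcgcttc
Urah: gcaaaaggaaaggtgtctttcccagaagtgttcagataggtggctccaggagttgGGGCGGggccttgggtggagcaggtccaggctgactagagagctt
Ada: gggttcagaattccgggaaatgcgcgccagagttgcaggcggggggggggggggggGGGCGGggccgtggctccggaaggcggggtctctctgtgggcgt
Nt5e: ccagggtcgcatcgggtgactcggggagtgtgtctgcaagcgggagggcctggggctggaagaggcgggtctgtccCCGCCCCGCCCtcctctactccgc

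These stretches differed in base composition and in the GC box. The whole window, from 250 bases before to 50 bases after the start, held 43.0% G and C for Uox, 57.0% for the first Urah start, 68.0% for Ada and 71.0% for Nt5e. The median over all 32851 windows was 52.7%, and 16.5% of windows lay below that of Uox, against 91.8% below that of Nt5e. A GC box stood in 7 of the 12 windows of the 8 genes that had one (Uox, Ada, Pnp, Gda, Urah, Nt5e, Adk and Ampd3), and in 35.66% of all windows. The Uox window had none. The TATA box TATAAA was in 0 of the 12 windows and 13.62% of all. The AP-1 pattern TGANTCA was in 1 window, of Ampd3, and 7.81% of all. The antioxidant response pattern TGACNNNGC was in 1 window, of Adk, and 12.39% of all. All patterns were read on both strands, and GC boxes that overlap each other were counted once per window. A match to letters is not a binding site, and these short windows leave out distant elements.

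Uox, the gene for urate oxidase (ENSMUSG00000028186, mm10 chr3:146570426-146632305, plus strand), had 156, 107 and 1.92 CPM in the SDS libraries, against 0.819, 0.0963, 0.480, 0.237 and 0.648 CPM in the control libraries. In reads, that was 3960, 3053 and 46 in SDS libraries and 24, 2, 13, 7 and 17 in control libraries. SDS libraries 1 and 2 carried nearly all of the signal, and SDS library 3 was the nearest to the controls but above them all, so the groups did not overlap. Uox averaged 88.3 ± 78.6 CPM (SD, n = 3) in SDS and 0.456 ± 0.295 CPM (SD, n = 5) in control libraries. The log2 fold change was 7.54 ± 1.17 (SE), and 8.12 without SDS library 3 or 6.86 without SDS library 1. By CPM per kilobase of exon it ranked 1587, 2232 and 15319 among all genes in the SDS libraries, and between 18191 and 22461 in the control libraries.

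Liver markers were read beside Uox. Alb, for the liver's secreted protein albumin, had 0.393, 3.23 and 33.03 CPM in the SDS libraries, against 19.8, 2.21, 0.554, 0.406 and 2.71 CPM in the control libraries. The 10 hepatocyte markers summed to 240.3, 21.2 and 93.7 CPM in the SDS libraries and to 6.46 to 804 CPM in the control libraries, and none of the 10 was at 0 in every library. Most of the sum in SDS library 1, where Uox was highest, was Cyp2e1, which fat also expresses, at 238 CPM. The other 9 markers summed to 2.08, 8.64 and 52.1 CPM in the SDS libraries, against 33.04, 6.36, 2.81, 2.06 and 6.94 CPM in the control libraries. Among the SDS libraries they were lowest in library 1 and highest in library 3. SDS library 2 was above every control except control library 1. The 11 adipocyte markers summed to 2149, 327 and 597 CPM in the SDS libraries and to 377 to 7156 CPM in the control libraries. The part of liver or fat cells in the level of Uox was not tested.

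The wound keratinocyte markers moved with Uox, 8 of the 10 being higher in every SDS library than in every control and none at 0 throughout, and their part in its level was not tested. For each 1000 CPM of those markers there were 7.48, 6.01 and 4.50 CPM of Uox in the SDS libraries, and 6.13, 0.543, 2.72, 1.18 and 4.92 CPM in the control libraries, so the ratios of the groups overlapped.

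Urah, the gene for hydroxyisourate hydrolase, the enzyme after urate oxidase (ENSMUSG00000025481, mm10 chr7:140835018-140837966, plus strand), had 119, 106 and 8.72 CPM in the SDS libraries. The control libraries had 7.37, 9.77, 9.23, 4.16 and 7.70 CPM. SDS libraries 1 and 2 stood far above every control, while SDS library 3 lay inside the control range. Its mean was 77.8 ± 60.1 CPM (SD, n = 3) in SDS and 7.65 ± 2.20 CPM (SD, n = 5) in control libraries, a log2 fold change of 3.35 ± 0.66 (SE), between 2.91 and 3.88 when 1 library at a time was left out. The wound keratinocyte markers were high in the same SDS libraries, and their part in Urah was not tested. Per 1000 CPM of those markers, Urah had 5.70, 5.94 and 20.4 CPM in the SDS libraries, against 55.2, 55.1, 52.3, 20.7 and 58.4 CPM in the control libraries, so on this scale every SDS library was below every control. An antisense transcript, C330022C24Rik, shares 177 exonic bases with Urah and had 36 counts over all 8 libraries. Urad, whose enzyme completes the route to allantoin, had 0 counts in each of the 8 libraries, which allows up to 0.101 to 0.144 CPM by library (3 counts, for counting error alone). Allc, for allantoicase, had 1 count, in control library 4.

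Xdh, the gene for xanthine dehydrogenase (ENSMUSG00000024066, mm10 chr17:73883908-73950182, minus strand), was even within the SDS group. It had 335, 346 and 310 CPM in the SDS libraries, against 200.3, 242, 265, 186 and 232 CPM in the control libraries. All 3 SDS libraries, including library 3, were above all 5 controls. The means were 330.2 ± 18.2 CPM (SD, n = 3) in SDS and 225 ± 31.9 CPM (SD, n = 5) in control libraries, and the log2 fold change was 0.55 ± 0.14 (SE). Leaving out any 1 library gave 0.50 to 0.62. The sum of 9 markers of the basal epithelium also did not overlap between the groups, at 8208 to 10664 CPM in SDS and 3437 to 7319 CPM in control libraries. Of the 9, Krt5 and Krt14 were higher in every SDS library than in every control and the other 7 overlapped, so the sum rests on those keratins. For each 1000 CPM of those basal markers, Xdh had 31.4 to 37.8 CPM in SDS and 33.8 to 54.1 CPM in control libraries, ranges that overlapped, and the part of these markers in Xdh was not tested.

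**Figure D1:**
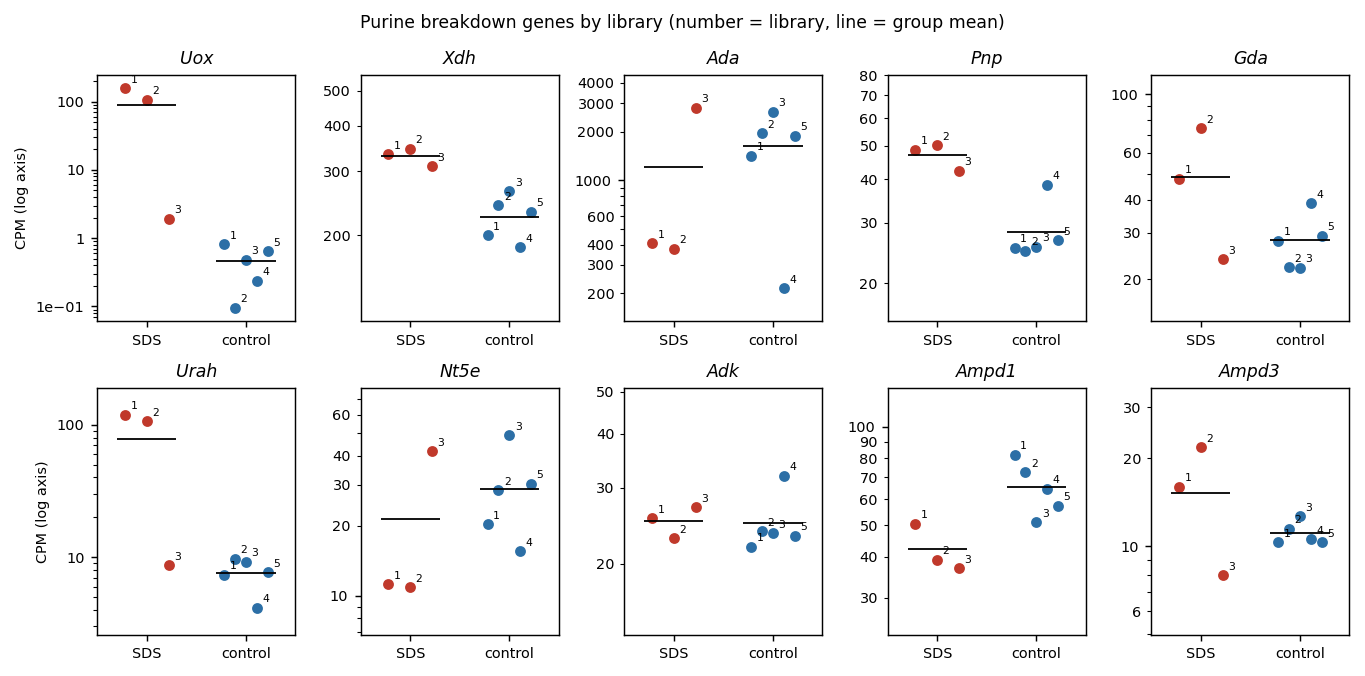
CPM of the 10 genes in each library on log axes, one panel a gene, with SDS libraries in red on the left and control libraries in blue on the right; the number names the library and the line is the group mean. Uox and Urah are above 100 CPM in SDS libraries 1 and 2 and at 1.92 and 8.72 CPM in SDS library 3, and Ada is lowest in control library 4 at 214.5 CPM.

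Ada, the gene for adenosine deaminase (ENSMUSG00000017697, mm10 chr2:163726584-163750239, minus strand), had 409, 377 and 2816 CPM in the SDS libraries. The control libraries had 1415, 1946, 2649, 214.5 and 1885 CPM. The highest of all 8 was SDS library 3 and the lowest was control library 4, so the groups overlapped over nearly their whole ranges. Ada averaged 1201 ± 1399 CPM (SD, n = 3) in SDS and 1622 ± 902 CPM (SD, n = 5) in control libraries. The log2 fold change of -0.43 ± 0.86 (SE) was smaller than its error. It became -2.04 without SDS library 3 and -0.01 without SDS library 2, the lowest and highest of the fits that left out 1 library.

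Few genes varied as much as Ada among the control libraries. Its highest control was 12.4 times its lowest, and its standard deviation over the 5 controls on the log2 scale, 1.45, was larger than that of 99.2% of the genes averaging at least 5 CPM. By CPM per kilobase it was the 32nd most abundant gene of SDS library 3 and the 37th of control library 3, but the 249th of SDS library 1 and the 440th of control library 4. Suprabasal markers followed part of this, being lowest in control library 4 (54191 CPM) and highest in SDS library 3 (165990 CPM). For each 1000 CPM of suprabasal markers there were 4.35, 3.76 and 17.0 CPM of Ada in the SDS libraries, against 15.9, 14.5, 16.4, 3.96 and 14.9 CPM in the control libraries. SDS libraries 1 and 2 and control library 4 were thus low against these markers too, and the other 5 libraries lay between 14.5 and 17.0.

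Nt5e, the gene for CD73, the surface enzyme that makes the adenosine that Ada removes (ENSMUSG00000032420, mm10 chr9:88327197-88372092, plus strand), had a milder form of the same pattern. It had 11.2, 10.9 and 41.8 CPM in the SDS libraries, against 20.3, 28.4, 48.8, 15.6 and 30.2 CPM in the control libraries. SDS libraries 1 and 2 were below every control and SDS library 3 was above 4 of the 5. The log2 fold change was -0.43 ± 0.52 (SE), or -1.37 without SDS library 3. For each 1000 CPM of suprabasal markers it had 0.119, 0.109 and 0.252 CPM in the SDS libraries and 0.211 to 0.302 CPM in the control libraries, where control library 4, at 0.287, was not low.

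Pnp, the gene for purine nucleoside phosphorylase, splits inosine and guanosine into base and sugar. Its row in the files (ENSMUSG00000021871, mm10 chr14:50944302-50965237, plus strand) is named Gm49342 in the name table, and was taken as Pnp because all 10 of its distinct exons are those of the Pnp transcripts in GENCODE. Pnp had 48.8, 50.2 and 42.4 CPM in the SDS libraries, against 25.4, 24.8, 25.5, 38.6 and 26.7 CPM in the control libraries. Every SDS library was above every control, of which library 4 came nearest. The means were 47.1 ± 4.17 CPM (SD, n = 3) in SDS and 28.2 ± 5.87 CPM (SD, n = 5) in control libraries, and the log2 fold change was 0.74 ± 0.16 (SE). Its neighbour and near copy Pnp2 had 180 counts over all 8 libraries, and reads that match both could be divided in either way.

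Gda, the gene for guanine deaminase (ENSMUSG00000058624, mm10 chr19:21391307-21473445, minus strand), had 48.0, 74.3 and 23.8 CPM in the SDS libraries. The control libraries had 28.0, 22.1, 22.1, 38.8 and 29.2 CPM. SDS libraries 1 and 2 were above all controls and SDS library 3 was among them. The log2 fold change was 0.80 ± 0.33 (SE) and depended on SDS library 2, without which it was 0.36. Ampd3, an AMP deaminase best known from red blood cells (ENSMUSG00000005686, mm10 chr7:110768206-110812405, plus strand), had the same order of the 3 SDS libraries. It had 16.03, 21.8 and 7.97 CPM in the SDS libraries, against 10.3, 11.5, 12.7, 10.6 and 10.3 CPM in the control libraries. SDS library 3 was below every control and SDS libraries 1 and 2 were above every control, with a log2 fold change of 0.46 ± 0.27 (SE), or 0.12 without SDS library 2. Ampd3 shares 195 exonic bases with Rnf141 on the other strand, which had 6476 counts in all, and the strand setting of the counting is not given in the sources used here.

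Macrophage and dendritic cell markers were also highest in SDS libraries 1 and 2. The 9 markers summed to 282, 471 and 97.1 CPM in the SDS libraries, with 110 to 173 CPM in the control libraries, and none was at 0 throughout. Of the 9, only Cd207 was higher in every SDS library than in every control. Neutrophil and fibroblast markers had the same order of the SDS libraries. The 9 neutrophil markers, of which 4 passed the filter, summed to 134, 153 and 15.9 CPM there, against 5.10 to 32.1 CPM in controls. Fibroblast markers summed to 2808, 6608 and 1311 CPM, against 2342 to 3086 CPM in controls. The part of any of these cell types in Gda and Ampd3 was not tested.

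Ampd1, the AMP deaminase of skeletal muscle (ENSMUSG00000070385, mm10 chr3:103074014-103099720, plus strand), had 50.5, 39.2 and 37.0 CPM in the SDS libraries, against 82.2, 72.7, 51.0, 64.7 and 57.3 CPM in the control libraries. It was the only one of the 10 to be lower in every SDS library than in every control, by a small margin between SDS library 1 and control library 3. Its mean was 42.2 ± 7.28 CPM (SD, n = 3) in SDS and 65.6 ± 12.3 CPM (SD, n = 5) in control libraries, and the log2 fold change was -0.63 ± 0.18 (SE). The mouse esophagus is wrapped in skeletal muscle, and 15 muscle markers gave a sum of 33948, 27316 and 19187 CPM in the SDS libraries, with 41802 to 55992 CPM in the control libraries. Of the 15 markers, 11 were lower in every SDS library than in every control and 4 overlapped. For each 1000 CPM of muscle markers, Ampd1 had 1.49, 1.44 and 1.93 CPM in the SDS libraries. The control libraries had 1.21 to 1.47 CPM on this scale, so the ratios of the groups overlapped. The part of the muscle markers in Ampd1 was not tested.

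Adk, the gene for adenosine kinase, returns adenosine to AMP and so competes with adenosine deaminase (ENSMUSG00000039197, mm10 chr14:21052574-21448568, plus strand). It had 25.5, 22.9 and 27.0 CPM in the SDS libraries, against 21.9, 23.8, 23.5, 31.9 and 23.2 CPM in the control libraries. The group means were 25.1 ± 2.10 CPM (SD, n = 3) in SDS and 24.9 ± 4.02 CPM (SD, n = 5) in control libraries, and the log2 fold change, 0.01 ± 0.14 (SE), was smaller than its error and changed sign with which library was left out.

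**Figure D2:**
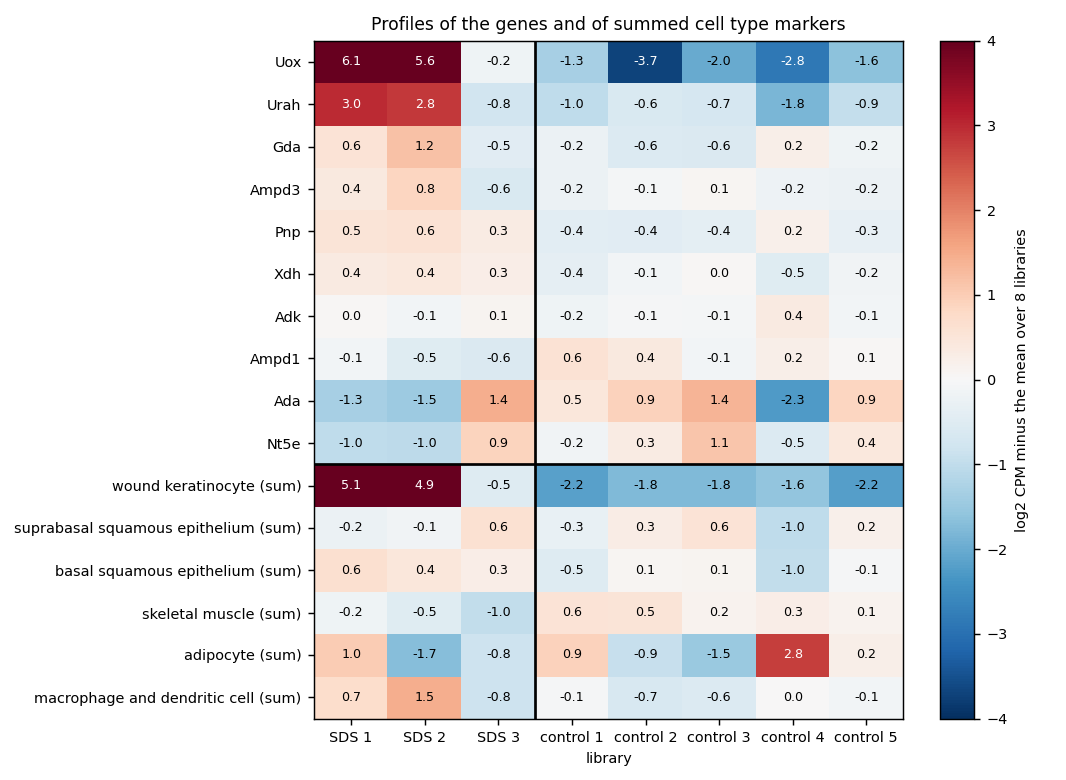
Log2 CPM of each gene, and log2 of the summed CPM of cell type markers, minus the row's own mean over the 8 libraries, with SDS libraries on the left and control libraries on the right; red is above and blue below the mean, and colours stop at 4 on either side. Uox, Urah and the wound keratinocyte markers are high in SDS libraries 1 and 2 alone, and Ada is low there and in control library 4.

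The 10 genes together gave 7 positive and 3 negative log2 fold changes. All 10 passed the filter on low counts, Uox in 3 SDS and 3 control libraries and the other 9 in all 8. By edgeR's quasi-likelihood test with Benjamini-Hochberg adjustment over all genes, 1 of them was past 0.05, Uox, where 1.05% of the 17179 genes tested were past it in either direction 0.623% were past it and higher in SDS, and 0.425% were past it and lower. Uox was no longer past it in 7 of the 8 fits that left out 1 library (all but the one without SDS library 3), with no filter on low counts, with limma-voom or with a replicate block. DESeq2 called 5 of the 10 (Uox, Xdh, Pnp and Urah higher, Ampd1 lower), where it called 8.81% of all genes, and limma-voom called 0, where it called 0.71%. In 4 of the 10 the groups did not overlap (Uox, Xdh and Pnp higher, Ampd1 lower), where 13.4% of all genes had no overlap, 6.49% of all genes being higher and 6.89% lower in SDS. The genes were chosen on this contrast, so these shares say nothing about the pathway.

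**Figure D3:**
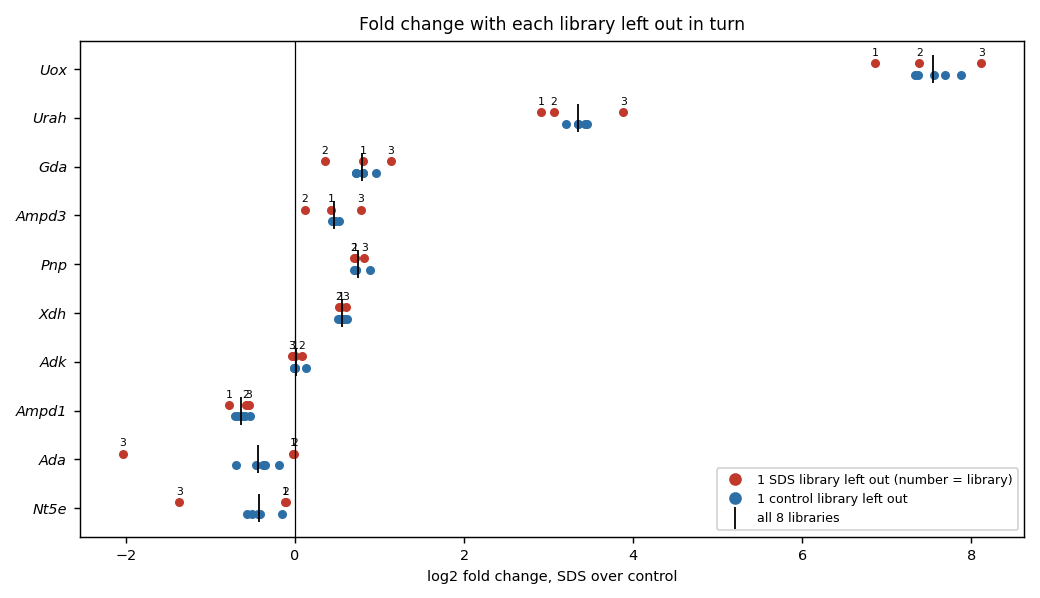
Log2 fold change of SDS over control for each gene with all 8 libraries (black line) and with 1 library left out at a time: red points leave out the SDS library whose number they carry and blue points leave out a control. Leaving out SDS library 3 moves Ada to -2.04 and Nt5e to -1.37, while Xdh stays between 0.50 and 0.62.

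Levels of different genes were compared as CPM per kilobase of exon. In the SDS libraries the order of mean levels was Ada (600 CPM per kilobase), Xdh (72.0), Urah (54.5), Uox (17.6), Pnp (15.3), Adk (14.1), Ampd1 (11.9), Gda (7.94), Ampd3 (2.71) and Nt5e (2.48). Neighbours in this order overlapped over the 3 libraries, except that Ada was above Xdh and that Gda was above Ampd3 by less than the third digit (both 3.88 at the nearest). In the control libraries the order was Ada (810 CPM per kilobase), Xdh (49.1), Ampd1 (18.5), Adk (14.0), Pnp (9.14), Urah (5.36), Gda (4.57), Nt5e (3.33), Ampd3 (1.97) and Uox (0.0911). Here Ada was above Xdh, Xdh above Ampd1, Pnp above Urah and Ampd3 above Uox in all 5 libraries, and the other neighbours overlapped. By their means Ada and Xdh were first and second in both groups, although in SDS library 1 Urah ranked 619 among all genes and Xdh 694, and Uox, last in control libraries, stood above 6 of the other genes in SDS libraries by its mean.

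**Figure D4:**
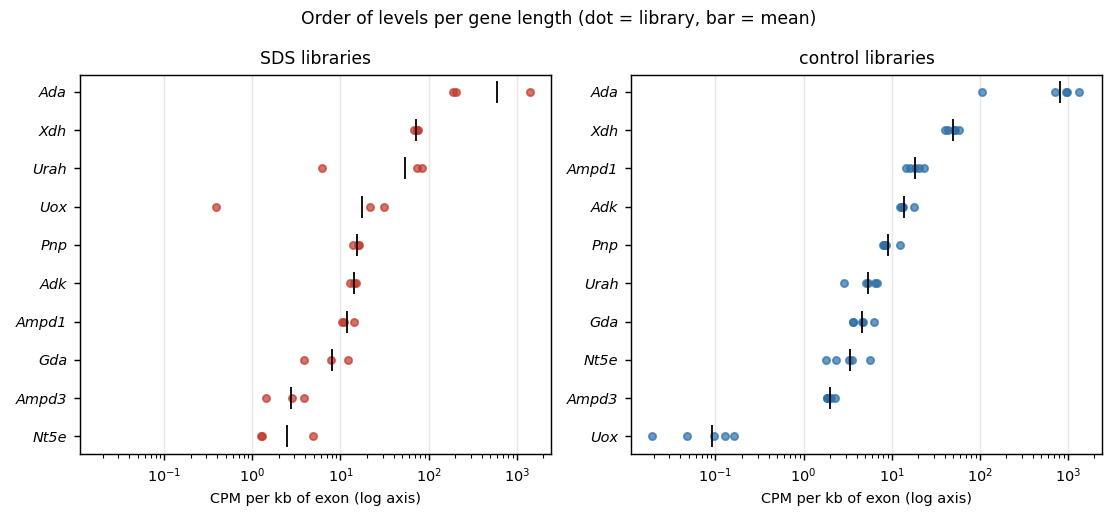
Level of each gene in CPM per kilobase of exon on a log axis, SDS libraries in the left panel and control libraries in the right, sorted by the group mean (black bar), with 1 dot a library. Ada and Xdh have the highest means in both panels, and Uox spans 0.383 to 31.1 in SDS libraries but stays at or below 0.164 in control libraries.

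The genes closest to Uox, Xdh and Ada over the 8 libraries were found by the root mean square difference of centred log2 CPM among 11152 genes averaging at least 5 CPM. Nearest to Uox were Defb3 (0.75), a beta-defensin, Sprr2d (0.85), a small proline-rich protein of the cornified envelope, and Krt16 (0.89), a keratin of wounded epithelium, set against 3.52 for the spread of Uox itself. Sprr2d and Krt16 belong to the wound keratinocyte markers above. Defb3 had 85.2, 61.4 and 0.584 CPM in the SDS libraries and at most 0.332 CPM in the control libraries. Nearest to Xdh were Mcm4 (0.07), a subunit of the replicative helicase, Atp1b3 (0.07), a subunit of the sodium pump, and Pgam1 (0.07), a glycolytic enzyme, against a spread of 0.31 for Xdh. Nearest to Ada were Krt32 (0.35), a keratin, Aldh3a1 (0.51), an aldehyde dehydrogenase, and Syt2 (0.54), a synaptotagmin, against a spread of 1.36 for Ada. Aldh3a1 had 394, 413 and 2590 CPM in the SDS libraries, against 1556, 2571, 3411, 654 and 2131 CPM in the control libraries, so it too was low in SDS libraries 1 and 2 and in control library 4. Likeness over 8 libraries that also differ in their marker sums is a description only.

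The other genes of purine and pyrimidine turnover were read from 8 lists. Of their 87 genes that passed the filter, 0 passed edgeR's quasi-likelihood test after Benjamini-Hochberg adjustment, where 1.05% of all genes did. At an unadjusted p under 0.05 there were 19 of the 87 (11 higher, 8 lower), where 18.5% of all genes were under it. DESeq2 called 15 of the 87, where it called 8.81% of all genes, and limma-voom called 0, where it called 0.71%. The median log2 fold change of the 87 was 0.06, against -0.005 for all genes, with 49 positive and 38 negative. The genes named next are the members with the smallest p of each list. None passed the edgeR test, and adjusted p-values are from that test.

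Of 15 further genes of purine breakdown, 7 had positive and 8 negative log2 fold changes (median -0.007). Xanthine dehydrogenase has close relatives in the aldehyde oxidases, which use the same molybdenum cofactor, and a pair of these had fold changes of opposite sign. Aox1 averaged 78.7 ± 12.1 CPM in SDS and 150 ± 29.3 CPM in control libraries (SD, n = 3 and 5), with a log2 fold change of -0.94 ± 0.18 (SE, adjusted p = 0.0538). Aox4 averaged 218 ± 112 CPM in SDS and 102 ± 15.2 CPM in control libraries, with 1.10 ± 0.28 (adjusted p = 0.0901). Its log2 fold change was 0.60 without SDS library 3, which had 346 CPM against 142 and 165 CPM in SDS libraries 1 and 2. For both genes the groups did not overlap. All 5 genes that make the molybdenum cofactor had small positive values (median 0.145), and 0 of the 5 had an unadjusted p under 0.05. Mocs2 had 0.28 ± 0.14, or 0.08 without SDS library 3, and Mocs3 had 0.27 ± 0.12. The values of the others were each smaller than their error.

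In salvage and interconversion, 19 genes were tested, with 11 positive and 8 negative log2 fold changes (median 0.12). Gmpr, which turns GMP into IMP, averaged 24.5 ± 9.003 CPM in SDS and 49.2 ± 6.19 CPM in control libraries, with -1.01 ± 0.22 (adjusted p = 0.0654). Ak1, the adenylate kinase of muscle, averaged 212 ± 60.1 CPM in SDS and 415 ± 55.3 CPM in control libraries, with -0.97 ± 0.20 (adjusted p = 0.0582). In de novo synthesis, 13 genes were tested (median -0.02). Adssl1, the muscle form of adenylosuccinate synthase, averaged 181 ± 64.1 CPM in SDS and 400.4 ± 52.9 CPM in control libraries, with -1.15 ± 0.23 (adjusted p = 0.0547). Adsl, the lyase of the next step, had -0.38 ± 0.10 (adjusted p = 0.103).

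Gmpr, Ak1 and Adssl1 were lower in every SDS library than in every control, as were Ampd1 and the summed muscle markers. For each 1000 CPM of muscle markers, Ak1 had 7.14 to 8.44 CPM in SDS and 8.48 to 8.93 CPM in control libraries, and Adssl1 had 5.68 to 7.47 CPM in SDS and 7.86 to 9.45 CPM in control libraries. Gmpr had 0.692 to 1.03 CPM in SDS and 0.903 to 1.18 CPM in control libraries on the same scale. The share of the muscle markers in these differences was not tested.

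On a list of genes linked mainly to nucleotide hydrolysis outside the cell, 11 genes were tested (median -0.01). Acpp, a phosphatase that like CD73 makes adenosine from AMP, averaged 56.1 ± 15.6 CPM in SDS and 24.8 ± 6.62 CPM in control libraries, with 1.18 ± 0.25 (adjusted p = 0.0634) and no overlap, SDS library 3 included. Enpp4 had -0.43 ± 0.20. Among 3 adenosine receptors tested, Adora2b, the low-affinity receptor, had 4.95, 7.66 and 7.01 CPM in the SDS libraries, against 2.73, 4.09, 3.36, 2.33 and 3.93 CPM in the control libraries, with 0.99 ± 0.24 (adjusted p = 0.0818). Adora2a had 0.37 ± 0.51, smaller than its error. Of 9 nucleoside and urate transporters (median 0.30), Slc29a1, an equilibrative nucleoside carrier, had -0.48 ± 0.14 (adjusted p = 0.123) and Slc29a3 had 0.44 ± 0.20.

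Genes of pyrimidine breakdown and salvage served as a neighbouring list, with 12 genes tested and a median of 0.04. Upp1, uridine phosphorylase, the pyrimidine counterpart of Pnp, had 27.6, 16.3 and 3.59 CPM in the SDS libraries, against 2.56, 3.71, 5.95, 1.45 and 2.94 CPM in the control libraries. SDS library 3 lay within the control range, as for Urah. The log2 fold change was 2.25 ± 0.60 (SE, adjusted p = 0.101), and 1.58 without SDS library 1. Tk1, thymidine kinase, had 0.71 ± 0.24 (adjusted p = 0.159).

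**Figure D5:**
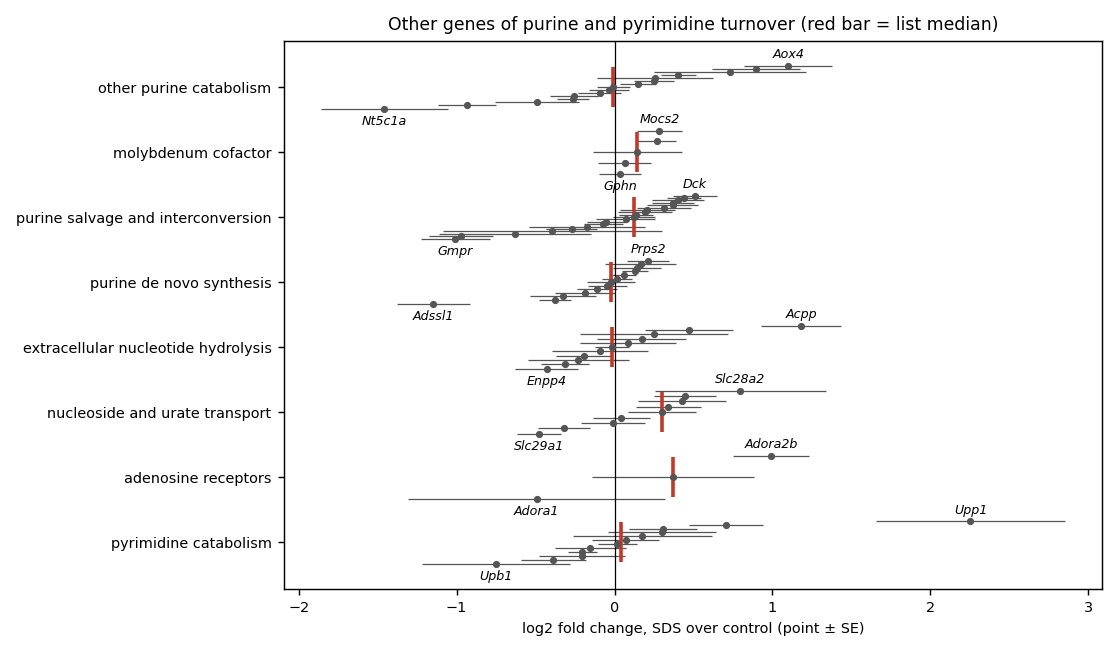
Log2 fold change of SDS over control, with its standard error, for the 87 other genes of purine and pyrimidine turnover, by list; the red bar is the list's median and the highest and lowest gene of each list are named. Medians lie between -0.02 and 0.37, and 0 of the 87 passed the edgeR test after adjustment.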

How the data were processed

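Poly(A)-selected RNA was sequenced after preparation with the NEBNext Ultra II kit, per the labels' protocols, which speak of whole esophagus in one place and of cell pellets in another. Each library has 1 deposited table of unnormalized counts for its genes, per the file headers. STAR 2.6.1c, Subread and the build mm10 are named in the submitters' processing notes. How strand and reads with many matches were handled is not given in the sources used here. The 10 genes and the gene lists were chosen with earlier results of these data known.

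Counts were fitted over all genes in R 4.3.3 with edgeR 4.0.16 (filterByExpr with a minimum count of 10 and a minimum total of 15, TMM, robust quasi-likelihood test, two-sided, Benjamini-Hochberg threshold 0.05). The common biological coefficient of variation was 29.3%. The SE given with an edgeR log2 fold change is its absolute value divided by the square root of the test's F statistic. CPM were scaled by TMM, with a prior count of 2 for log2 CPM. Named genes were the 10, the 2 smallest p of each other list and the 3 nearest profiles of Uox, Xdh and Ada. Alternatives were other scalings and filters, DESeq2 1.42.0, limma-voom (limma 3.58.1), a replicate block and leaving out libraries. On simulated counts (16767 genes, 200 changed) the edgeR fit found 31% of genes changed 2-fold and 73% of those changed 4-fold, and made 5 false calls. The simulation drew each gene independently, without library-wide shifts such as those of SDS library 3 and control library 4. Its shares may therefore differ from those in the real libraries. Between libraries of a group, chi-square per degree of freedom was at least 24.2, so none was a copy.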

Additional observations from a re-analysis of the deposited data

Results flagged for a closer look

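Control libraries were checked for 1 library far from the other 4, over 41 genes and marker sums, and 7 were found. Chance gives about 1 in 20 for a single item. Items of the same libraries are not independent, so no excess over chance was read. Control library 4 held 6 of the 7. Pnp had 38.6 CPM there, against 24.8 to 26.7 CPM in the other controls, and Adk had 31.9 CPM, against 21.9 to 23.8 CPM. Adora2a had 2.91 CPM there, against 0.839 to 1.37 CPM. The same library had the highest sums of adipocyte markers (7156 CPM, against 377 to 2010 CPM), fibroblast markers (3086 CPM, against 2342 to 2480 CPM) and hepatocyte markers (804 CPM, against 6.46 to 201.6 CPM). Of that last sum 802 CPM was Cyp2e1, which fat also expresses, and the other 9 hepatocyte markers summed to 2.06 CPM there, the lowest of the 5 controls. The part of adipocytes and fibroblasts in Pnp, Adk and Adora2a was not tested. In control library 5, Slc29a3 had 10.3 CPM, against 9.32 to 9.60 CPM in the other controls.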

How the results depend on the processing

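Over all genes, edgeR called 180. DESeq2 called 1584 and the fit with a replicate block, which has little power for the reason given below, called 0. Leaving out 1 library gave between 4 and 1222 calls: 4, 7, 18, 122 and 10 without control libraries 1 to 5, and 56, 4 and 1222 without SDS libraries 1 to 3. Leaving out SDS library 3 and control library 4 together, a choice made after seeing the data, gave 2077. Scaling by upper quartile gave 175 calls with 121 higher and 54 lower, against 107 higher and 73 lower with TMM. Among the other pathway genes, 0 were called by edgeR, 4 with no filter (Adssl1, Ak1, Aox1 and Gmpr, all lower), 15 by DESeq2, between 0 and 8 with 1 library left out (2 without SDS library 1, 8 without SDS library 3) and 18 without SDS library 3 and control library 4. Uox was past the threshold in 1 of the 8 fits with a library left out, the one without SDS library 3, and not past it with no filter, with limma-voom or with the replicate block. Ada became -2.33 without SDS library 3 and control library 4. Adora2a turned to -0.19 without SDS library 2, with 0.83 as the highest of its fits that left out 1 library. It was 1.13 without SDS library 3 and control library 4. The causes were not tested. Among the 10 genes only Adk changed sign, in 5 of the fits with a library left out (-0.04 to 0.13). Depth limits Uox in control libraries, where it rests on 2 to 24 counts.

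The replicate numbers are shared by the groups in the labels, and the deviations of same-numbered libraries correlated at 0.31, -0.006 and 0.31 for numbers 1 to 3. Number 2 showed no such relation, so the numbers were not taken as pairs, and the block, with 0 calls, is a check only. Numbers 4 and 5 exist only among the controls, so in the block fit those libraries add nothing to the SDS difference. Few degrees of freedom are left for the spread. The 0 calls and the missing call of Uox with the block therefore say little about how stable the calls are. SDS library 3 correlated best with its own number (0.31), SDS library 1 with control library 4 (0.51) and SDS library 2 with control library 4 (0.02).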
